A study of Mus musculus with 14 samples.

Results

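Among the labeled cells of the dissected pontine nuclei (PN) at postnatal day 5 (P5), 1804 cells were glutamatergic PN neurons that also held messenger RNA of Gad2, the gene for the glutamate decarboxylase GAD65. They were 1068 of 11300 kept cells in P5 library 1 (9.45%, exact 95% binomial interval 8.92 to 10.0) and 736 of 6608 in library 2 (11.1%, 10.4 to 11.9), out of 122658 kept cells in all 14 libraries. The cells were selected on 9 genes by their raw counts of unique molecular identifiers (UMIs, 1 per captured transcript). A member had at least 20 UMIs of Mapt, at least 1 of Slc17a6 and of Pax6, no UMI of En2 or Slc32a1, at most 1 of Hoxb5, of Nr2f2 and of Etv1, and at least 2 of Gad2. Cells with fewer than 1000 genes, or with 10% or more mitochondrial UMIs, had been left out. The levels of these 9 genes in the members are therefore given as a description.

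The study compared Atoh1-lineage cells of control and Atoh1 S193A/- mice, in which a phosphorylation site of the transcription factor ATOH1 is mutated, and described the types of PN neurons at P5. TdTomato-positive, DAPI-negative cells were sorted and sequenced as 10x Genomics 3′ v3.1 libraries, from whole hindbrains of 3 control and 3 Atoh1 S193A/- embryos each at E14.5 and E18.5 and from dissected PN at P5. Each embryonic library came from 1 embryo, and each of the 2 P5 libraries from a pool of 11 to 13 control pups. All mice were C57BL/6J per the labels. Controls were Atoh1 Cre/+; Rosa lsl-tdTomato/+ and mutants Atoh1 Cre/S193A; Rosa lsl-tdTomato/+, so the controls too carried 1 Atoh1 copy whose coding region is replaced by Cre. The reporter marks every cell whose lineage once expressed Atoh1, and no P5 library of the mutant was part of the design, so genotypes were compared at the embryonic ages only. Between the P5 libraries 38 cell barcodes were shared, 1 of them between members, and 66 members had a barcode that also occurred in an embryonic library. The P5 libraries held 236964126 and 160411671 UMIs in all, and the embryonic libraries between 108239001 and 193872318.

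PN neurons relay signals of the cerebral cortex to the cerebellum as mossy fibers, which release glutamate. They arise from Atoh1-expressing progenitors of the rhombic lip at the dorsal edge of the hindbrain, and they migrate along the surface of the hindbrain to the ventral pons. In neurons that release GABA, GAD65 (Gad2) and GAD67 (Gad1) make GABA from glutamate, and the vesicular transporter encoded by Slc32a1 loads it into vesicles. Slc17a6 and Slc17a7 encode the vesicular glutamate transporters VGLUT2 and VGLUT1.

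Gad2 was common among PN neurons of the P5 libraries, while Gad1 was near 0 in the members. Of the cells that met every limit other than that on Gad2, 2860 in library 1 and 1766 in library 2, 37.3% (35.6 to 39.1) and 41.7% (39.4 to 44.0) had 2 or more Gad2 UMIs and were members. At 1 or more UMIs the shares were 58.5% and 61.6%. With each cell thinned to 5000 UMIs, 5.38% and 6.57% had 2 or more and 22.8% had 1 or more in each library, so the shares depend on the depth. The members held a median of 3 Gad2 UMIs in both libraries and at most 16 in library 1 and 24 in library 2, while 34.9% and 31.3% of them were at the limit of 2. The share was also taken in glial classes, which should lack Gad2, since free RNA in droplets gives UMIs in such cells. Cells with an Slc17a6 or Slc32a1 UMI, or with 5 or more Mapt UMIs, were left out of these classes. Those limits can remove cells with more free neuronal RNA, so the glial values may lie below the full background. In astrocyte-like cells 5.51% in library 1 and 4.73% in library 2 had a Gad2 UMI, in microglia-like cells 3.08% and 1.97%, and in cells of the oligodendrocyte lineage 5.35% and 2.23%. These glial cells were shallower, with median UMIs of 6506 to 10991.5 per cell against 27930.5 and 32069.5 in the members. Levels are given in CPM, the UMIs of a gene per 1000000 UMIs summed over the cells of a class. Gad2 stood at 8.21 and 4.16 CPM in astrocyte-like cells against 55.0 and 59.7 over all cells within the other limits. At 2 or more Gad2 UMIs the astrocyte-like share was 1.15% in library 1 and 0 of 465 cells in library 2, which allows a share of up to 0.645%. The numbers of cells at each Gad2 count fell off gradually in both libraries, with no gap at the limit.

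**Figure D1:**
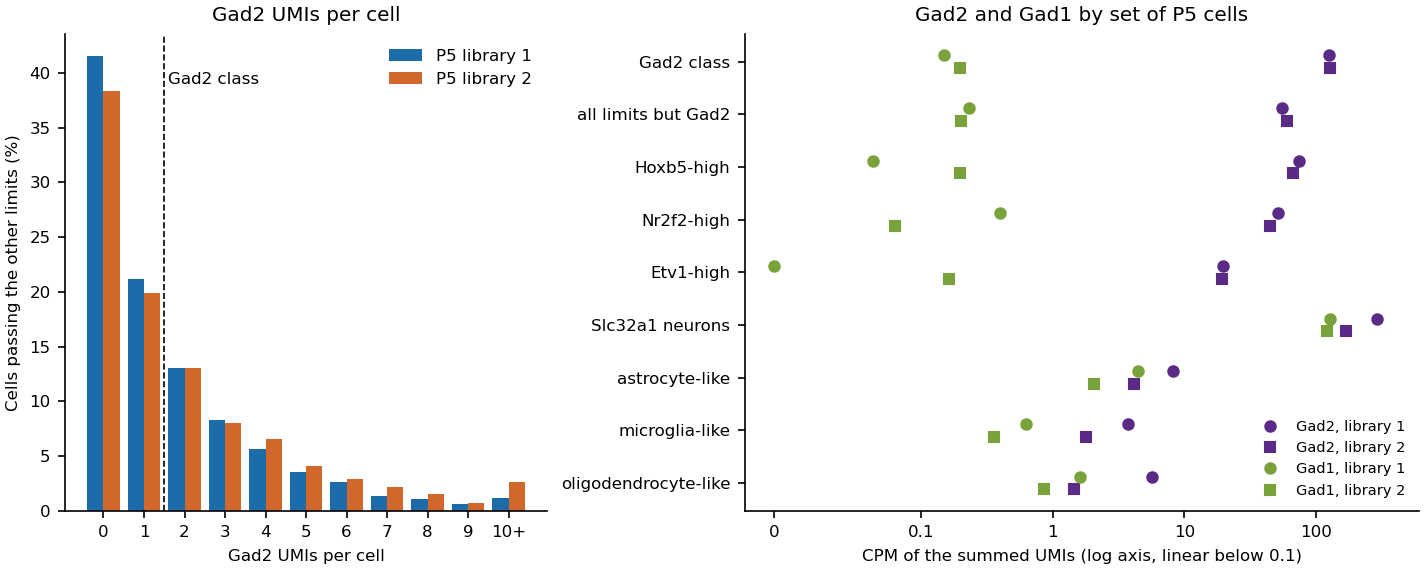
Left, share of cells (%, vertical axis) at each number of Gad2 UMIs per cell (horizontal axis, the last bar holds 10 or more) among the P5 cells within all other limits of libraries 1 and 2, with a dashed line at the limit of the class. Right, level of Gad2 and Gad1 (CPM, log axis that is linear near 0) in each library for 9 sets of P5 cells. In library 1, 605 cells had 1 Gad2 UMI and 373 had 2, and in library 2, 352 and 230.

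In GENCODE M21 annotation (GRCm38, the same assembly as mm10), Gad2 lies at chr2:22622205-22693874, plus strand, and Gad1 at chr2:70553072-70602014, plus strand. The library kit reads the 3′ end of polyadenylated RNA, so the counts speak of the transcript and not of the protein or of GABA release. In the members Gad2 stood at 124 CPM in library 1 and 127 in library 2. Gad1 stood at 0.151 and 0.199 CPM and was found in 4 of 1068 and 3 of 736 members, 0.375% (0.102 to 0.956) and 0.408% (0.0841 to 1.19). Glial cells held Gad1 UMIs too, in 3.56% and 1.94% of astrocyte-like and in 0.615% and 0.394% of microglia-like cells, so the Gad1 shares of the members lay below the first and near the second. For comparison, the few neurons of the same libraries with 2 or more Slc32a1 UMIs, 28 in library 1 and 11 in library 2, had Gad2 at 291 and 168 CPM and Gad1 at 128 and 120 CPM. Gad2 was thus lower in the members than in those cells, and Gad1 was near 0 in the members.

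The label of the class was checked against its marker genes. Slc17a6, of which every member had to hold 1 UMI, stood at 231 and 262 CPM in the members, against 230 and 263 in cells without a Gad2 UMI. Those cells were matched on depth in library 1 and were all such cells, unmatched, in library 2. Pax6, a transcription factor of the Atoh1 lineage, stood at 137 and 141 CPM against 87.9 and 85.0. Barhl1, a homeobox factor of rhombic-lip neurons that the rule did not use, had a UMI in 86.8% and 85.7% of members, Hoxb3, a gene of hindbrain position, in 90.8% of members in each library, and Zic1 in 100% and 99.7%. The label markers that the rule did not use were each in fewer cells. Nell1, which encodes a secreted EGF-like protein, had a UMI in 26.5% and 33.4% of members. Ntng1, which encodes the membrane-anchored axonal adhesion protein netrin-G1, had one in 54.8% and 55.8%, and Nrgn, which encodes the calmodulin-binding protein neurogranin, in 82.1% and 83.8%. All 3 were found in 21.4% and 25.4% of members, and none of them in 134 cells of library 1 (12.5%) and 78 cells of library 2 (10.6%). The members are therefore a class defined by its Gad2 count, within which the other label markers were unevenly spread.

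Nell1, Ntng1 and Nrgn were higher in members than in cells without Gad2. The comparison was made with cells of the same library that met every other limit and had no Gad2 UMI, matched one to one on UMIs per cell where library 1 had enough of them (1068 cells, median UMIs 27925) and with all 678 such cells in library 2 (median 30499). Nell1 stood at 14.8 CPM in library 1 and 16.5 in library 2 in the members, against 2.19 and 2.12 in the Gad2-zero cells, a log2 change of 2.83 ± 0.15 (SE). Ntng1 stood at 54.4 and 51.1 CPM against 12.8 and 11.1, a log2 change of 2.13 ± 0.09. Nrgn stood at 119 and 148 CPM against 68.9 and 79.1, a log2 change of 0.83 ± 0.07. For all 3 genes both member values lay above both Gad2-zero values. Since these genes name the class and were picked with results of these libraries known, no p is given for them here. Nell1 lies on chr7:49974864-50866608 (plus strand), Ntng1 on chr3:109780040-110144011 (minus strand) and Nrgn on chr9:37544492-37552904 (minus strand).

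The levels of several genes moved step by step with the number of Gad2 UMIs, in both libraries. For 0, 1, 2, 3, 4, 5 to 9 and 10 or more Gad2 UMIs, Nell1 in library 1 stood at 2.13, 5.99, 6.99, 8.32, 17.8, 25.3 and 37.9 CPM. In library 2 the same steps gave 2.12, 4.66, 8.35, 11.8, 14.9, 25.1 and 35.9 CPM. Ntng1 ran from 12.8 to 125 CPM in library 1 and from 11.1 to 105 in library 2. Nell1 and Ntng1 were thus higher at each further step in both libraries. Cells at 1 Gad2 UMI, just outside the limit, had Nell1 at 5.99 and 4.66 CPM and Ntng1 at 23 and 12.3, and members at 2, just inside it, had Nell1 at 6.99 and 8.35 and Ntng1 at 32.7 and 27.5. The members just inside the limit lay closer to the cells just outside it than to members at 10 or more.

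Sst, the gene of the neuropeptide somatostatin and in the study a marker of a P5 type of PN neuron, ran the other way. It went from 910 CPM at 0 Gad2 UMIs to 121 at 10 or more in library 1 and from 974 to 74.8 in library 2. Slc17a7 went from 39.4 to 13.1 CPM and from 37.4 to 6.58. Slc17a6 stayed between 227 and 234 CPM in library 1 and between 254 and 270 in library 2 over all steps. Median UMIs per cell ranged from 26540 to 33651 over the steps of library 1 and from 29967.5 to 34086 in library 2, with the highest value at 10 or more Gad2 UMIs in both. These steps are a description across cells of the same libraries.

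**Figure D2:**
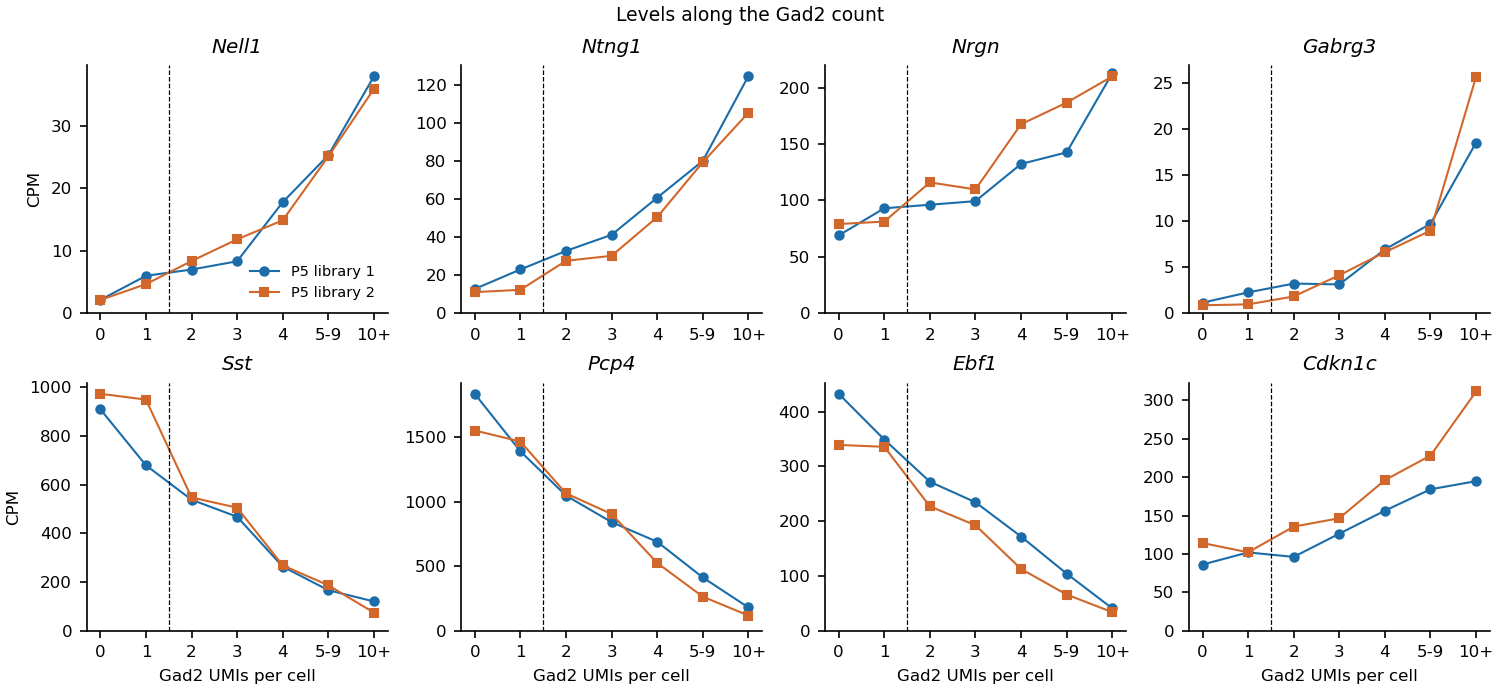
Level (CPM, vertical axis) of 8 genes against the number of Gad2 UMIs per cell (horizontal axis) in P5 libraries 1 and 2 (1 line each), each point the sum over all cells of that count. Nell1, Ntng1, Nrgn, Gabrg3 and Cdkn1c were higher, and Sst, Pcp4 and Ebf1 lower, at 10 or more Gad2 UMIs than at 0.

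The members were not uniform. They were split by Sst and by Cdkn1c, a cell cycle inhibitor gene, which are on the study's marker lists of the P5 types PN1 and PN3. The rule set no limit on either gene, so the class can hold cells of both types. Of the members, 174 of library 1 and 121 of library 2 had 20 or more Sst UMIs, 374 and 311 had fewer and also had 5 or more UMIs of Cdkn1c, and 520 and 304 had neither. Nell1 stood at 27.1 and 29.0 CPM in the Cdkn1c-high members, at 11.2 and 11.5 in those with neither, and at 2.68 and 1.85 in the Sst-high members. Ntng1 stood at 88.2 and 80.4, 45.4 and 41.5, and 18.8 and 11.5 CPM in the same order. Nrgn followed the same order with 173 and 220, 110 and 123, and 46.4 and 57.2 CPM. Gad2 itself stood at 159 and 165 CPM, 116 and 114, and 84.4 and 78.1. The Sst-high members had Nell1 near the level of Gad2-zero cells, and the label markers were highest in the Cdkn1c-high members of both libraries. Sst-high cells were 16.3% and 16.4% of the members against 39.2% and 38.6% of the Gad2-zero cells, and cells with 5 or more Cdkn1c UMIs were 37.5% and 44.4% against 18.7% and 24.6%. In a comparison added after the data were seen that kept only cells with at most 19 Sst and at most 4 Cdkn1c UMIs on both sides, Nell1 was at a log2 change of 2.83, Ntng1 at 1.70 and Nrgn at 0.57.

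Across the transcriptome 649 of 11044 genes tested rose in the members (5.88%) and 814 fell (7.37%), 13.2% in either direction. A gene was called at an FDR below 0.05 (edgeR quasi-likelihood test on UMIs summed per library, with the library as a block) and an absolute log2 change above 0.25, and the 9 genes of the rule were left out. The median log2 change over all genes tested was 0.00065. The block takes out differences in level between the 2 libraries of pooled pups, so the test measures how evenly the differences between classes held in both pools, and 343 genes were called without it. The cells of a library were not treated as replicates. Among the 10 largest rises, after Nell1, were those of Gabrg3, a GABA-A receptor subunit, Ntng1, Vwc2, which encodes a secreted modulator of BMP signaling, Bhlhe22, a basic helix-loop-helix factor, Gramd3, Ezr and Man1a. Gabrg3 stood at 6.02 and 6.59 CPM in the members against 1.19 and 0.867, a log2 change of 2.56 ± 0.21 (FDR 4.45e-09). Vwc2 stood at 24.7 and 31.8 CPM against 5.42 and 7.58 (2.12 ± 0.11, FDR 5.21e-12). Bhlhe22, Gramd3, Ezr and Man1a had log2 changes of 2.04, 1.89, 1.87 and 1.73. The libraries of the 2 classes overlapped in none of these genes. The genes were taken for large changes in the same direction in both libraries, so that follows largely from the choice.

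Among the 10 largest falls were those of Slc22a3, an organic cation transporter, Prokr1, Jcad, Hapln1, a link protein of the extracellular matrix, Gabrd, Ndst3, Sst, Prkcd and Sfrp2. Sst stood at 371 and 366 CPM in the members against 913 and 974 (-1.37 ± 0.07, FDR 3.71e-12). Slc22a3, Prokr1, Jcad, Hapln1, Gabrd, Ndst3, Prkcd and Sfrp2 had log2 changes between -1.84 and -1.35. Sst was thus the most abundant of the 10 genes that fell furthest.

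**Figure D3:**
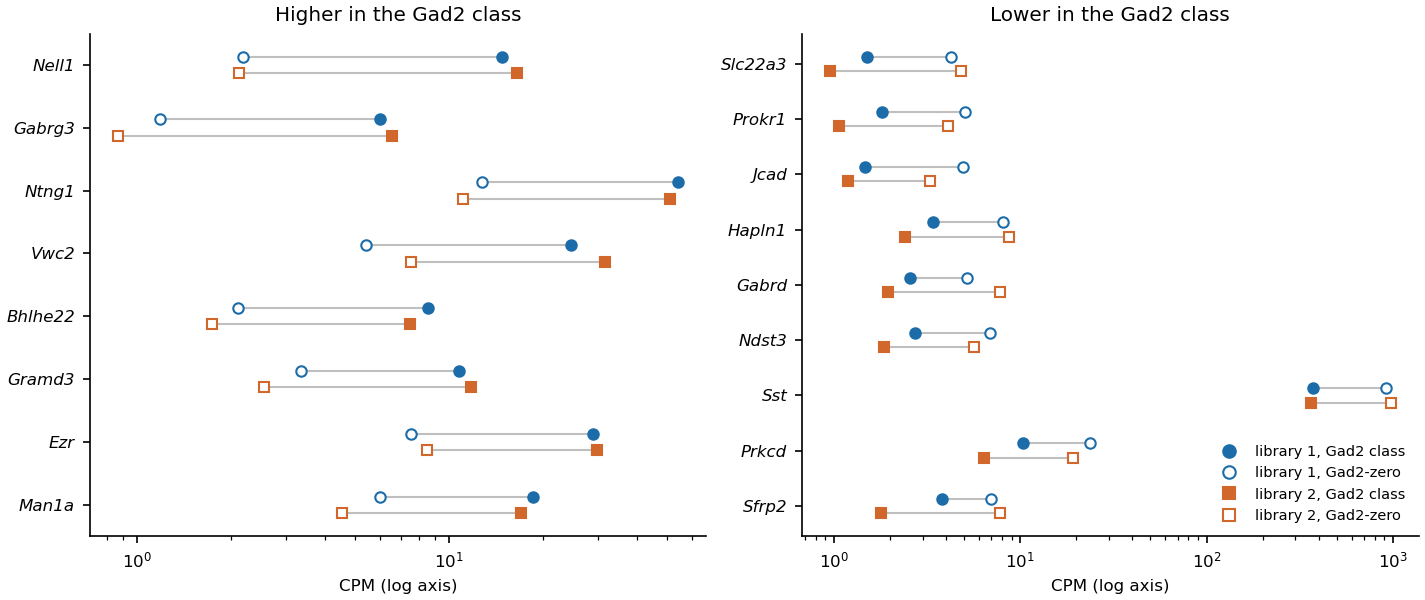
Level (CPM, log axis) in each P5 library of the members and of the Gad2-zero cells for 8 genes among the 10 largest rises and 9 among the 10 largest falls, with filled points for the members and open points for Gad2-zero cells. For each gene drawn, both member libraries lie on the same side of both Gad2-zero libraries, which the choice of these genes largely builds in.

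Genes of GABA breakdown rose in the members, while transcripts that mark GABA neurons were near 0. Of the GABA and glycine transmission list, 5 genes were abundant enough to test, and 3 rose and 0 fell (list median 0.28). Over all genes tested 5.88% rose and 7.37% fell, to be set beside this and the following P5 list counts. Among them were Abat, the GABA transaminase (log2 change 0.31 ± 0.06, FDR 0.000173), and Aldh5a1, which oxidizes succinate semialdehyde, the product of ABAT (0.28 ± 0.08, FDR 0.0147). The glycine transporter gene Slc6a5 stood at 0.181 and 0.0397 CPM. Of 18 factors of inhibitory lineages, 6 had no UMI in the members of either library (Tfap2b, Ptf1a, Dlx1, Dlx5, Sox14 and Skor2). Only Lhx1, a LIM-homeobox factor, was abundant enough to test. Lhx1 stood at 24.3 and 20.5 CPM against 19.7 and 15.5 (0.33 ± 0.08, FDR 0.00466). Of the glutamate transmission list 7 genes were tested, 0 rose and 1 fell (list median -0.01), Slc17a7, at 24.4 and 20.4 CPM against 38.8 and 37.4 (-0.77 ± 0.07, FDR 9.86e-09).

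Receptor and channel genes moved in both directions. Of 12 GABA-A receptor subunits tested, 4 rose (among them Gabrg3, Gabrb1 and Gabra3) and 2 fell (Gabrd and Gabra5), with a list median of 0.00. Gabra5 stood at 104 and 95.3 CPM against 161 and 163 (-0.71 ± 0.04, FDR 5.16e-11), and Gabrd, a subunit of receptors outside the synapse, at 2.56 and 1.95 against 5.21 and 7.84 (-1.47 ± 0.18, FDR 1.32e-06). Of 22 glutamate receptor subunits 4 rose and 6 fell (median -0.11), among them Grin3a, an NMDA receptor subunit, which fell by 0.42 on the log2 scale. Of 37 potassium, sodium and calcium channel genes 4 rose and 7 fell (median -0.01), beside 5.88% of all genes that rose and 7.37% that fell. Kcnd2, the A-type potassium channel Kv4.2, rose by 0.55 ± 0.04 (199 and 212 CPM against 134 and 144), and Kcna1, the potassium channel Kv1.1, fell by 0.78 ± 0.06 (22.9 and 18 CPM against 36.5 and 33.4).

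Among guidance and adhesion genes, 10 of 33 tested rose and 10 fell (median 0.03), beside 5.88% of all genes that rose and 7.37% that fell. Nell1 and Ntng1 are themselves members of this list. Beyond them, Efnb2, the ligand ephrin-B2, stood at 13.9 and 9.01 CPM against 4.02 and 4.25 (1.49 ± 0.15, FDR 1.01e-07), and Unc5b, a netrin receptor, rose by 1.06 ± 0.12. Lrrc4c, which encodes the netrin-G ligand NGL-1 that binds netrin-G1, stood at 27.0 and 24.3 CPM against 45.8 and 45.0 (-0.83 ± 0.05, FDR 1.06e-10). Ephb1, a receptor for ephrin-B ligands, fell by 0.67 ± 0.05. Efnb3 rose as well (0.43 ± 0.04), and Ephb2 did not pass (0.20 ± 0.08, FDR 0.0524). These are sums over the class and do not show which of the changes lie in the same cells. Of 19 synaptic organizers 9 rose and 1 fell (median 0.15). Nxph1, the neurexin ligand neurexophilin-1, stood at 107 and 137 CPM against 42.7 and 63.1 (1.20 ± 0.06, FDR 9.46e-12), C1ql1, a secreted C1q-like protein, rose by 1.18 ± 0.10, and Lrrtm2, a postsynaptic adhesion protein, by 0.92 ± 0.05.

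More genes fell than rose on the lists of calcium-binding, peptide and mature neuron genes, and more rose than fell on that of immature neurons. Over all genes tested 5.88% rose and 7.37% fell. Of 17 calmodulin and calcium-binding genes 1 rose, Nrgn, and 5 fell (median -0.14). Pcp4, which like neurogranin binds calmodulin through an IQ motif, stood at 752 and 666 CPM against 1833 and 1550 (-1.27 ± 0.05, FDR 4.70e-13). Of 14 neuropeptide and granin genes 1 rose, the prohormone convertase gene Pcsk1, and 7 fell (median -0.24). Penk, the enkephalin precursor, fell by 1.34 ± 0.12 (6.02 and 10.2 CPM against 19.5 and 19.8), and Pnoc, the nociceptin precursor, by 1.29 ± 0.10 (27.1 and 32.2 against 70.0 and 73.2). Of 20 genes of mature neurons 0 rose and 7 fell (median -0.17), among them the neurofilament genes Nefh (-0.92 ± 0.08) and Nefm (-0.57 ± 0.06). Of 18 genes of migrating and immature neurons 7 rose and 1 fell (median 0.20). Tle1, a transcriptional corepressor, rose by 0.81 ± 0.12, Nhlh2, a basic helix-loop-helix factor, by 0.72 ± 0.07 (34.9 and 39.9 CPM against 21.8 and 23), Igfbpl1 by 0.72 ± 0.05, and Dcx, the microtubule protein doublecortin, by 0.38 ± 0.03 (470 and 449 against 362 and 337). Crabp1, a retinoic acid binding protein, was the gene of that list that fell.

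The pontine and positional genes split. Of 11 pontine identity genes tested 3 rose and 4 fell (median -0.12). Zic4 rose by 0.70 ± 0.04 (312 and 335 CPM against 197 and 198), Nfia, a nuclear factor I gene, by 0.62 ± 0.03, and Zic1 by 0.45 ± 0.03, while Barhl1 fell by 0.47 ± 0.04 (138 and 137 against 182 and 195) and Hoxb2 by 0.45 ± 0.06. Of 7 Hox genes tested 0 rose and 2 fell, Hoxb2 and Hoxa3. The study's own marker lists of P5 types were found on these cells, so their counts are no independent evidence. All 11 genes of the first list (PN1, led by Sst, Ebf1 and Pcp4) fell, with a median of -0.89, and all 8 tested of the sixth (PN6, the list that holds Etv1) fell, with a median of -0.60. Ebf1, the transcription factor early B cell factor 1, stood at 197 and 145 CPM against 427 and 339 (-1.18 ± 0.05, FDR 4.70e-13). The other lists were mixed, with 5 of 10 rising and 2 falling in each of PN2 and PN3, 3 of 8 and 4 of 8 in PN4, and 1 of 9 and 3 of 9 in PN5. Of the PN3 list, Cdkn1c stood at 138 and 184 CPM against 87.1 and 114 (0.67 ± 0.07, FDR 1.20e-07). Of the E18.5 lists, 4 of 10 genes of ePN4, which holds Ntng1, rose and 3 fell, and 6 of 9 of the migrating neurons rose and 2 fell.

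Markers of other cells and signs of quality were set beside these counts. The 10 astrocyte markers summed to 238 and 169 CPM in the members against 267 and 171 in Gad2-zero cells, and 3 of 6 tested rose (Sox9, Slc1a2 and Slc1a3) and 0 fell. The 10 oligodendrocyte-lineage markers summed to 355 and 230 CPM against 388 and 341, with 1 of 4 tested falling. The microglial markers summed to 150 and 57.0 CPM against 115 and 139, the vascular markers to 5.69 and 6.63 against 5.27 and 2.69, the Purkinje cell markers to 21.4 and 19.1 against 22.4 and 19.5, and the granule and unipolar brush cell markers to 112 and 107 against 110 and 117. The blood and choroid markers summed to 10.2 and 8.22 CPM against 11.2 and 432, the last value standing apart. Of 13 genes of the response to dissociation that were tested, 2 rose (Fosb and Egr1) and 1 fell (Ier3), and their list summed to 2789 and 3507 CPM against 2810 and 3576. Median mitochondrial UMIs were 2.74% and 2.47% in the members against 2.78% and 2.58%. The share of cells among the top Scrublet (doublet) scores of their library was 10.9% and 9.51% in the members against 7.49% and 11.7% in Gad2-zero cells, and without the cells of top scores 688 genes rose and 889 fell. The part of these measures in single gene changes was not tested.

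Gad2 was not particular to the cells within the limits, and part of what came with it was shared by other PN neurons. Cells with 2 or more UMIs of exactly 1 of Hoxb5, Nr2f2 and Etv1 are kept out of the class by its rule. Of 760 and 429 Hoxb5-high cells, 59.9% and 61.1% had 2 or more Gad2 UMIs, of 565 and 350 Nr2f2-high cells 35.8% and 36.3%, and of 220 and 121 Etv1-high cells 21.4% and 26.4%. The Hoxb5-high and Etv1-high cells were deeper (median UMIs 37296 and 43434, and 41066 and 47429), so these shares are not at 1 depth. In CPM, Gad2 stood at 74.6 and 66.3 in Hoxb5-high cells, at 50.9 and 44.7 in Nr2f2-high cells and at 19.7 and 19.4 in Etv1-high cells, against 55.0 and 59.7 in all cells within the limits. Etv1-high cells were lowest by either measure, and Hoxb5-high cells highest.

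In a comparison added after the data were seen, cells with 2 or more Gad2 UMIs and cells with none were compared within each of these sets. The sums held 455 and 262 Hoxb5-high cells with Gad2 and 164 and 109 without, 202 and 127 Nr2f2-high cells on each side, and 47 and 32 Etv1-high cells on each side, so the counts of calls are not at equal numbers of cells. Among Hoxb5-high cells 161 genes rose (1.4%) and 138 fell (1.2%) of 11537 (2.59% in either direction), among Nr2f2-high cells 247 rose (2.2%) and 278 fell (2.48%) of 11219 (4.68%), and among Etv1-high cells 26 rose (0.215%) and 14 fell (0.116%) of 12110 (0.33%). Nell1 rose with Gad2 among Hoxb5-high cells (9.75 and 11.4 CPM against 4.06 and 4.40, 1.30 ± 0.22, FDR 0.000803) and among Nr2f2-high cells (7.63 and 6.01 against 1.44 and 2.09, 1.99 ± 0.33, FDR 0.000708). Ntng1 rose among both, by 0.65 ± 0.08 (FDR 2.10e-05) and 1.16 ± 0.17 (FDR 0.00013), while among Etv1-high cells it was at 0.73 ± 0.32 (FDR 0.418). In Hoxb5-high cells Ntng1 stood at 95.5 and 77.4 CPM with Gad2 and at 59.0 and 50.4 without, against 54.4 and 51.1 in the members. Hoxb5-high cells without Gad2 thus held Ntng1 near the level of the members, and those with Gad2 held more. In Nr2f2-high cells it stood at 25.7 and 22.4 CPM against 12.9 and 7.44. Nell1 was too low in Etv1-high cells to be tested. Nrgn passed in none of the 3 sets (0.16, 0.24 and 0.68). Vwc2 rose by 1.62 and 1.61 among Hoxb5-high and Nr2f2-high cells. Among Etv1-high cells it stood at 6.65 and 4.82 CPM against 0 and 1.22 and passed (3.52 ± 0.76, FDR 0.0261), and with no UMI in 1 of the 2 Gad2-zero sums the size of that change is not comparable with the other 2. Pcp4 fell in all 3, by 0.76, 0.63 and 0.54 on the log2 scale. Cdkn1c, which rose in the members, stood at -0.39 ± 0.11 among Hoxb5-high cells (53.7 and 64.1 CPM against 63.2 and 90.5, FDR 0.0567) and fell among Nr2f2-high cells by 0.43 ± 0.10 (119 and 140 against 168 and 168, FDR 0.0101). All 4 sets come from the same 2 libraries. Nell1, Ntng1 and Nrgn were picked with results of these libraries known. Their FDRs here and in the next comparison are therefore not independent evidence.

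The change with Gad2 was also compared between the sets. Relative to the cells within the limits, the log2 change of Cdkn1c differed by -1.06 ± 0.13 among Hoxb5-high cells (FDR 5.51e-05) and by -1.10 ± 0.12 among Nr2f2-high cells (FDR 2.48e-05). That of Ntng1 differed by -1.49 ± 0.11 (FDR 3.20e-08), -0.98 ± 0.20 (FDR 0.00776) and -1.41 ± 0.35 (FDR 0.0492) among Hoxb5-high, Nr2f2-high and Etv1-high cells. The genes named had been taken for large changes within the limits, so a smaller change elsewhere is partly built into the choice. Over all genes, 177 of 10972 genes tested in both sets differed for Hoxb5-high cells, 176 of 10900 for Nr2f2-high cells and 114 of 10989 for Etv1-high cells.

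**Figure D4:**
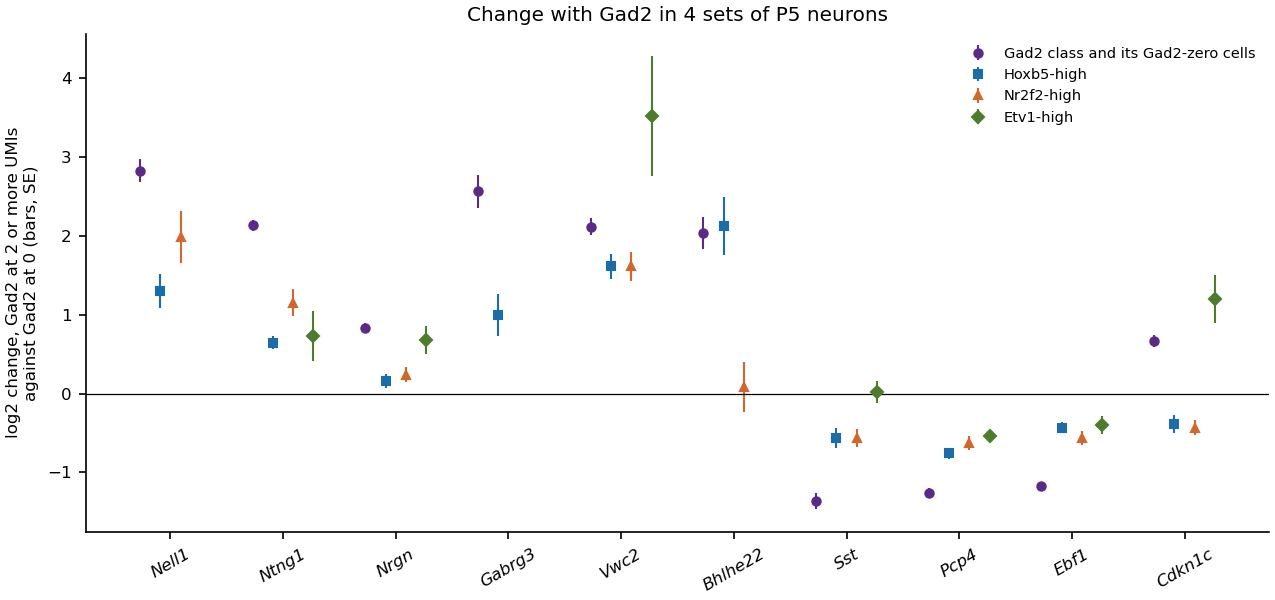
Log2 change (vertical axis, with SE bars) of 10 genes between cells with 2 or more and with no Gad2 UMI in 4 sets of P5 cells, those within the limits and those high for Hoxb5, Nr2f2 or Etv1. Cdkn1c lies above 0 within the limits (0.67) and below 0 in the Hoxb5-high and Nr2f2-high cells (-0.39 and -0.43), and genes too low to test have no point.

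The same class was then sought in the embryonic libraries, which the rule did not use. Because whole hindbrains were sorted there, at least 2 UMIs over Hoxb2, Hoxb3 and Hoxb4 and no UMI of Eomes, a marker of unipolar brush cells, were added to the limits. At E18.5 the share of cells with 2 or more Gad2 UMIs among cells within the other limits was 20.9% (18 of 86), 15.3% (20 of 131) and 13.2% (28 of 212) in the control libraries and 28.5% (37 of 130), 26.3% (21 of 80) and 25.6% (46 of 180) in the Atoh1 S193A/- libraries. The 3 mutant shares lay above the 3 control shares. The means were 16.5% ± 4.00 and 26.8% ± 1.52 (SD, n = 3 embryos each), a difference of 10.3 percentage points, with an exact two-sided permutation p of 0.1, the smallest that 3 against 3 allows. Within pairs of equal replicate number, taken as littermates, the mutant share was higher by 7.53, 11.0 and 12.3 points. The exact sign-flip p with these pairs as blocks was 0.25, also the smallest possible. Median UMIs of these cells were 20773, 16643 and 20679.5 in control and 19265.5, 17905 and 16907 in mutant libraries. At 3 or more Gad2 UMIs the difference was 2.97 points (exact permutation p = 0.4), and with each cell thinned to 5000 UMIs it was 2.29 points (4.32% ± 3.42 against 6.62% ± 2.41, exact permutation p = 0.4). Without the limits on Hox genes and Eomes it was 5.96 points (10.7% ± 1.76 against 16.7% ± 3.11, exact permutation p = 0.1).

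At E14.5 few cells held the transcript. The shares were 0 of 119, 2.82% (2 of 71) and 1.67% (4 of 239) in the control libraries and 6.85% (10 of 146), 0 of 36 and 4.96% (7 of 141) in the mutant libraries, where 0 of 119 allows a share of up to 2.52% and 0 of 36 one of up to 8.33%. The genotypes overlapped (difference 2.44 points, exact two-sided permutation p = 0.4, and p = 0.5 for the exact sign-flip test within pairs). After thinning to 5000 UMIs per cell the difference turned to -1.08 points (exact two-sided permutation p = 0.4), with a share of 0 in each of the 3 mutant libraries. It was 0.985 points without Atoh1 S193A library 1 and 4.41 points without Atoh1 S193A library 2 (exact permutation p = 0.7 and 0.1, the latter the smallest that 3 against 2 allows), both unthinned. The shares of the 3 ages were thus lowest at E14.5 and highest at P5 at raw counts. After thinning to 5000 UMIs per cell the P5 shares were 5.38% and 6.57%, and those of the 6 E18.5 libraries ran from 1.53% to 8.46%, so that these 2 ages overlapped. The ages also differ in the tissue that was dissected and in the Hox and Eomes limits, and no test between ages was made.

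At E18.5 the Gad2 class could be compared with Gad2-zero cells in all 6 libraries, each with 18 to 46 members, and the label markers outside the rule did not pass there. Of 10111 genes tested 147 rose (1.45%) and 203 fell (2.01%), 3.46% in either direction, with a median log2 change of 0.01. In place of these 350 calls there were 222 without Atoh1 S193A library 1, 196 without the library as a block, 154 by DESeq2, 677 against all Gad2-zero cells and 1044 without the limits on Hox genes and Eomes. Nell1 had 2 UMIs in the class and 4 in the matched Gad2-zero cells over the 6 libraries together, too few to test. Ntng1 stood at 0, 8.38 and 15.3 CPM in the class of the control libraries and 11.3, 8.34 and 50.6 of the mutant libraries, against 0, 14 and 5.10 and 36.9, 30.5 and 25.9 (log2 change -0.17 ± 0.40, FDR 0.906). Nrgn stood at 2.78 to 11.7 CPM in the class against 0 to 4.26 and did not pass (1.36 ± 0.50, FDR 0.142). It was higher in the class in 5 of 6 libraries, and in Atoh1 S193A library 2 each class held 1 UMI. None of the 3 label markers outside the rule was called at E18.5.

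Genes of young and migrating neurons were among those that rose with Gad2 at E18.5. Of 20 genes of the migrating and immature list 10 rose and 0 fell (median 0.26, beside 1.45% of all genes that rose). Robo3, the receptor that lets hindbrain neurons approach the midline, stood at 67.3, 5.59 and 45.8 CPM in the class of the control libraries and 33.8, 11.1 and 11.7 of the mutant libraries, against 0 to 5.61 in Gad2-zero cells (4.27 ± 0.55, FDR 3.24e-07, higher in 5 of 6 libraries). Tle1 stood at 44.5 to 110 CPM against 11.9 to 58.9 (1.57 ± 0.22, FDR 2.44e-06, higher in 6 of 6), Thsd7a at 66.7 to 143 against 30.9 to 56.1 (1.29 ± 0.19, FDR 4.15e-06, 6 of 6) and Nhlh2 at 54.5 to 116 against 30.6 to 56.7 (0.98 ± 0.17, FDR 8.48e-05, 6 of 6). Robo3, Thsd7a, Crabp1, Tle1, Sobp and Rgmb, which all rose, are also on the list of markers of E18.5 migrating neurons. All 9 tested genes of that list rose (median 0.96). The study found that list on these libraries and it holds Gad2, so its count is not independent evidence. The same holds for these genes within the count of the immature list. The other genes of the immature list that rose were Nhlh1, Nhlh2, Igfbpl1 and Sox11. Nhlh1, a factor of newly born neurons, rose by 2.40 ± 0.61 (FDR 0.0128, higher in 5 of 6 libraries), a call that was lost without control library 1 (1.99), without control library 3 (2.18) and without Atoh1 S193A library 1 (2.11), and with the limits of the rule alone it was at 0.04. Prox1, a homeobox factor, stood at 101 to 194 CPM against 38.9 to 75.6, with no overlap of the 6 libraries of each class (1.33 ± 0.16, FDR 1.17e-07).

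The 10 genes that rose furthest in 6 of 6 libraries were Hist1h1b, Pdzrn3, Hmcn1, Id4, Zeb2, Lgals1, Bcl2l11, Btbd17, Vrk2 and Tle1. Id4 did not keep its direction with the limits of the rule alone, without those on Hox genes and Eomes. Pdzrn3, a ubiquitin ligase of the PDZ family, stood at 15.6 to 69.9 CPM against 2.70 to 16.8 (2.55 ± 0.41, FDR 2.71e-05). Hist1h1b, a linker histone gene, stood at 110 CPM in the class of control library 3 and at 5.19 to 25 in the other 5 (3.35 ± 0.51, FDR 8.45e-06), and without the cells of top Scrublet scores it was at 1.81 and did not pass. The 10 that fell furthest were Pcp4, Relb, Calb2, Fbxo17, Sfmbt2, Rgs4, Car10, Cnih3, Lrat and Sostdc1. Pcp4 stood at 2.69 to 32.5 CPM against 58.9 to 314 (-3.33 ± 0.32, FDR 3.40e-10), Calb2, the calcium-binding protein calretinin, at 0 to 13.9 against 14.3 to 61.7 (-2.48 ± 0.43, FDR 9.27e-05) and Sostdc1, a secreted BMP and WNT antagonist, at 2.69 to 42.4 against 51.3 to 119 (-1.86 ± 0.23, FDR 1.53e-07). None of these 3 genes overlapped between the classes, which their choice for large falls in the same direction in every library partly builds in. For Calb2 the highest value in the Gad2 class and the lowest in Gad2-zero cells lay close together.

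Other gene lists were counted at E18.5 in the same way, beside 1.45% of all genes that rose and 2.01% that fell. Of the GABA and glycine transmission list 4 genes were tested, 0 rose and 0 fell (median -0.08), and Gad1 had 1 UMI in the class of control library 3, 1 in that of Atoh1 S193A library 3 and none in the other 4. Of 17 synaptic organizers 1 rose and 4 fell (median -0.17), of 28 guidance and adhesion genes 2 rose and 7 fell (median -0.20), and of 16 calcium-binding genes 1 rose and 6 fell (median -0.18). Of 12 pontine identity genes 5 rose, Hoxa2, Nfia, Hoxb3, Nfib and Zic1, and 1 fell, Zic2 (median 0.22). Hoxb2, Hoxb3 and Hoxb4 are on that list and were used to select the cells of both classes at E18.5, so their values are not independent of the limits, and of the 9 other genes 4 rose and 1 fell. Of the astrocyte, oligodendrocyte-lineage and microglial markers 4, 3 and 1 were tested and none was called, and of 11 genes of the dissociation response 2 rose (Egr1 and Ier2) and 1 fell (Fos).

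Part of the P5 pattern was present at E18.5. Of 9882 genes tested at both ages, 534 of those that rose and 545 of those that fell at P5 were among them. At E18.5 340 of the 534 (63.7%) were higher in the class, against 50.9% of all genes tested there, with a median of 0.12, and 165 of the 545 (30.3%) were higher, with a median of -0.24. Called at both ages were 43 genes that rose, 63 that fell and 28 that moved in opposite directions. The 43 are 8.05% of the 534 and 31.9% of the 135 that rose at E18.5, where 1.37% of all 9882 genes rose. The 63 are 11.6% of the 545 and 31.0% of the 203 that fell at E18.5, where 2.05% of all genes fell. Of the 28, 18 rose at P5 and fell at E18.5 (3.37% of the 534) and 10 fell at P5 and rose at E18.5 (1.83% of the 545). Among the 43 were Lhx1, Nfia, Nhlh2, Tle1, Prox1, Igfbpl1 and Zic1. Lhx1 stood at 48.4 to 89.4 CPM at E18.5 against 34.1 to 51.0 (0.64 ± 0.18, FDR 0.0290, higher in 6 of 6), and Nfia at 613 to 915 against 448 to 691 (0.42 ± 0.07, FDR 1.76e-05, 6 of 6). Among the 63 were Pcp4, Ebf1, Calb1, Lrrc4c and Grin3a. Ebf1 fell by 1.21 ± 0.16 at E18.5 and by 1.18 ± 0.05 at P5. Among the 28, Cdkn1c rose at P5 and fell at E18.5 (-0.41 ± 0.12, FDR 0.0452, lower in 6 of 6 libraries), as did Kcnd2. At E18.5 Cdkn1c stood at 188, 184 and 270 CPM against 324, 356 and 387 in control libraries. In mutant libraries it stood at 222, 220 and 165 against 226, 247 and 187, a smaller fall. Its change was not called different between the genotypes. Crabp1 fell at P5 and rose at E18.5 (0.96 ± 0.19, FDR 0.000629, higher in 4 of 6). The P5 libraries are all control, while the E18.5 fit held both genotypes.

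**Figure D5:**
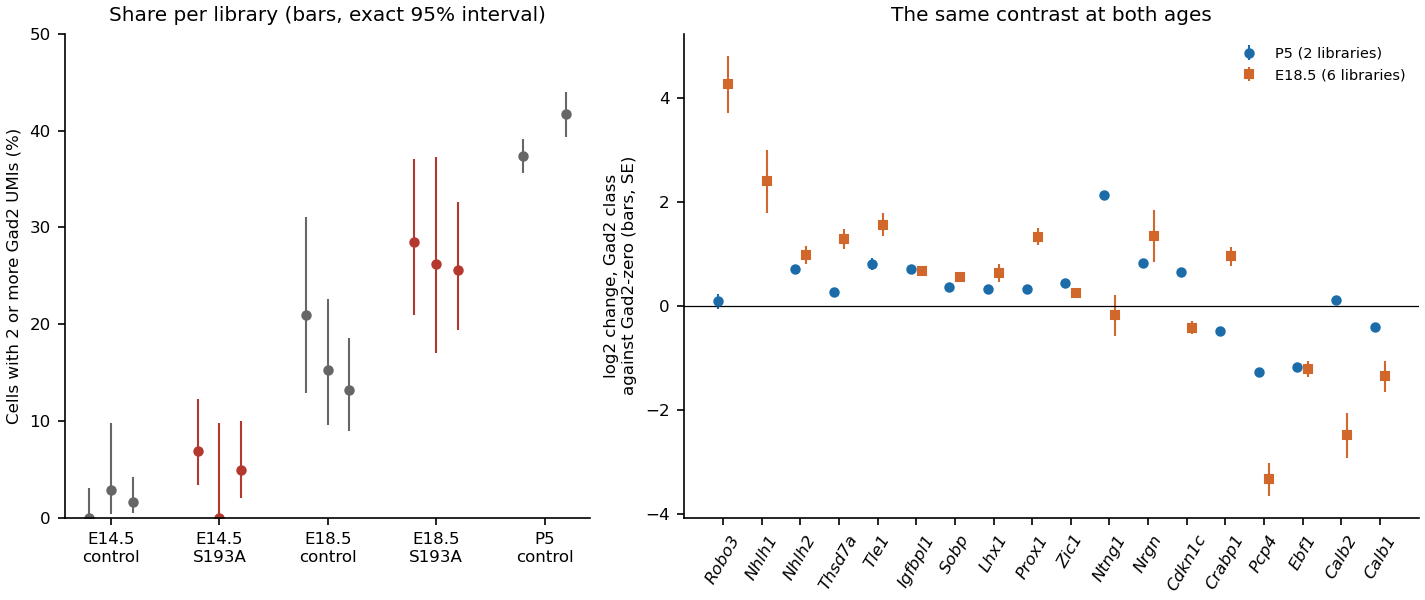
Left, share (%) of cells with 2 or more Gad2 UMIs within the other limits in each library at E14.5, E18.5 and P5, with exact 95% binomial intervals. Right, log2 change between the Gad2 class and Gad2-zero cells for 18 genes at P5 and E18.5. The E18.5 shares are 13.2 to 20.9% in control and 25.6 to 28.5% in Atoh1 S193A/- libraries, and Cdkn1c and Crabp1 lie on opposite sides of 0 at the 2 ages.

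Within the E18.5 Gad2 class the genotypes were compared over 3 control and 3 Atoh1 S193A/- libraries. Without the litter in the fit 0 of 10161 genes passed by edgeR (0% called, 584 genes at an unadjusted p under 0.05) and 0 by DESeq2 (131 genes at an unadjusted p under 0.05). With the pair of equal replicate number, taken as littermates, as a block 28 passed (0.276%), 9 higher (0.0886%) and 19 lower (0.187%) in the mutant. Crabp1, the retinoic acid binding protein of the immature list, stood at 525, 210 and 475 CPM in the control libraries and 300, 97.3 and 139 in the mutant libraries (-1.26 ± 0.14, FDR 3.47e-11 with the block, and FDR 0.176 without it). Rprm, which encodes a mediator of cell cycle arrest, stood at 10.8, 19.6 and 18.7 CPM in control and 33.8, 77.9 and 72.7 in mutant libraries (1.87 ± 0.32, FDR 0.000105 with the block). The mutant value was lower in each of the 3 pairs for Crabp1 and higher in each for Rprm.

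Kcnd2 rose by 1.18 ± 0.23 and Fxyd7, Brinp3, Kcnq3, Cadm2, Atp1b1, Khdrbs3 and Meg3 rose as well, by between 0.43 and 2.42. Among the genes that fell in each of 3 pairs, Ccnd2, a D-type cyclin, stood at 18.8, 11.2 and 107 CPM in control and 14.1, 2.78 and 9.09 in mutant libraries (-2.44 ± 0.38), and Top2a, a topoisomerase of dividing cells, at 18.8, 2.79 and 61.1 against 5.63, 0 and 5.19 (-2.89 ± 0.52). Nhlh1 fell by 2.38 ± 0.54, Id4 by 1.77 ± 0.36 and Insm1, a factor of neuronal differentiation, by 1.33 ± 0.25. Control library 3 held the highest Ccnd2 and Top2a of all 6 libraries. In a comparison added after the data were seen that left out each pair in turn, 27, 37 and 11 genes passed without pair 1, 2 and 3, and of the 28 genes only Crabp1 and Rprm passed in all 3. With the third pair left out, neither Ccnd2 nor Top2a passed. In the fit of both classes, the change between the Gad2 class and Gad2-zero cells differed between the genotypes for 2 of 10111 genes (0.0198%), 1 with a higher change in the mutant (0.00989%) and 1 with a lower (0.00989%). These were Klhl13, whose change differed by 2.80 on the log2 scale (FDR 0.0113), and Crabp1, whose change differed by -2.05 (FDR 4.27e-06).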

How the data were processed

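The authors prepared 10x Genomics 3′ v3.1 libraries, mapped reads to mm10 plus the WPRE sequence, and counted UMIs with Cell Ranger. Per the file headers, 2 of the 14 libraries (E14.5 controls 1 and 2) came from version 3.1.0 and the others from 5.0.1, the version of the submitters' processing notes. The deposited values are raw UMI counts of 31054 genes per barcode, without normalization.

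Cells with at least 1000 genes and under 10% mitochondrial UMIs were kept, and doublets were not removed in the main comparisons. An alternative left out, per library, the top 7.5% of cells by Scrublet score. Glial classes had at least 20 UMIs over the markers of the class, more than over those of the other glial classes. They had under 5 UMIs of Mapt and none of Slc17a6 or Slc32a1. Levels are UMIs per 1000000 UMIs summed over a class. Sums per library were tested in edgeR 4.0.16 (R 4.3.3, TMM, quasi-likelihood F test, Benjamini-Hochberg FDR) over genes detected in 10% or more of the cells of a class, with all classes of an age in 1 fit with the library as a block. DESeq2 1.42.0 was an alternative. Gad2-zero cells were matched one to one on UMIs per cell within a library, since a limit on raw UMIs favors deep cells. Where they were fewer than the cells with Gad2, as in P5 library 2 and among Hoxb5-high cells, all were taken without matching. Intervals and limits for counts of 0 cover counting error only, the limit being 3 counts of the total. The scripts were tested on simulated data. Python 3.11.15, scanpy 1.11.5, numpy 2.4.6, scipy 1.17.1 and pandas 2.3.3 were used.

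The members and the 31 gene lists were chosen with earlier results of these data known. Named are the genes of the rule, the label markers, genes of a list where that list is described, and for each test the 10 genes that rose and the 10 that fell furthest among those called and moving the same way in every library. Some of these genes are not reported here. Sums per library stand in place of the MAST test over cells that the study used, because cells of 1 animal are not independent.

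The labels describe each mutant embryo with its littermate control, so libraries with the same number were taken as pairs. The deviations of paired libraries from their genotype means correlated at 0.0568, 0.0149 and 0.140 across genes. Between libraries of unlike number the correlations ran from -0.122 to 0.0551. Pair 1 thus lay barely above that range and pair 2 within it, so the pairing remains an assumption. Values with the pair as a block stand beside the genotype results.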

Additional observations from a re-analysis of the deposited data

Results flagged for a closer look

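At E18.5 the change between the Gad2 class and Gad2-zero cells differed between genotypes for 2 of 10111 genes (0.0198%, edgeR interaction term). The log2 change of Crabp1, a retinoic acid binding protein, was lower by 2.05 in Atoh1 S193A/- than in control libraries (difference -2.05, FDR 4.27e-06). Crabp1 stood at 525, 210 and 475 CPM in the class of the control libraries against 135, 78.6 and 81.6 in Gad2-zero cells, and at 300, 97.3 and 139 against 249, 116 and 149 in the mutant libraries. It was thus higher in the class in 3 of 3 control libraries and in 1 of 3 mutant libraries. Klhl13, an adaptor of a ubiquitin ligase, differed by 2.80 (FDR 0.0113). Klhl13 stood at 8.07, 16.8 and 8.49 CPM against 86.4, 28.1 and 81.6 in control libraries and at 38.0, 27.8 and 23.4 against 25.6, 24.9 and 27.2 in mutant libraries, lower in the class in 3 of 3 control libraries and in 1 of 3 mutant libraries.

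Among P5 cells, the change with Gad2 in the Hoxb5-high, Nr2f2-high and Etv1-high sets differed from that within the limits, by the test of the difference itself, for several of the named genes. Among Hoxb5-high cells the log2 differences were -1.06 for Cdkn1c, 0.74 for Ebf1, -1.57 for Gabrg3, -1.53 for Nell1, -0.67 for Nrgn, -1.49 for Ntng1, 0.51 for Pcp4, 2.22 for Slc22a3 and 0.80 for Sst. Among Nr2f2-high cells they were -1.96 for Bhlhe22, -1.10 for Cdkn1c, 0.61 for Ebf1, 1.35 for Ndst3, -0.59 for Nrgn, -0.98 for Ntng1, 0.64 for Pcp4 and 0.80 for Sst. Among Etv1-high cells they were 0.77 for Ebf1, -1.66 for Ezr, -1.41 for Ntng1, 0.72 for Pcp4 and 1.39 for Sst. Apart from Cdkn1c among Hoxb5-high and Nr2f2-high cells, Slc22a3 among Hoxb5-high cells and Sst among Etv1-high cells, these differences reduced the size of the change and did not turn its sign. Since these genes were named from results within the limits of the same libraries, a smaller change elsewhere is partly built into the choice. Over all genes, 177 of 10972 differed for Hoxb5-high cells, 176 of 10900 for Nr2f2-high cells and 114 of 10989 for Etv1-high cells.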

How the results depend on the processing

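Between members and Gad2-zero cells at P5, 1463 genes were called, against 343 in a fit without the library as a block and 931 by DESeq2. Leaving out 1 of the 2 P5 libraries left no residual degrees of freedom, so no count was made. Over 23 genes at P5, the label markers and those with the largest changes among them, 346 of 373 values kept their direction and, where tested, their call. Values with 1 P5 library left out had no FDR and were judged on direction alone. The 3 values that reversed came from the sets kept out of the class, Sst among Etv1-high cells (0.023) and Slc22a3 (0.37) and Sfrp2 (0.11) among Hoxb5-high cells. Cdkn1c, not among the 23, also turned sign in the Hoxb5-high and Nr2f2-high cells (-0.39 and -0.43). The members' share at P5, 39.5% on average, was 26.5% at 3 or more Gad2 UMIs and 5.98% after thinning to 5000 UMIs.

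At E18.5, 350 genes were called between the classes. The count was 677 against all Gad2-zero cells, 196 without the library as a block, 154 by DESeq2 and 1044 with the limits of the rule alone, without those on Hox genes and Eomes. With 1 library left out it ran from 222 (without Atoh1 S193A replicate 1) to 308. Ntng1, not called, was at 0.33 at 3 or more Gad2 UMIs and between -0.95 and 0.34 with 1 library left out, and Id4 was at -0.10 with the limits of the rule alone. For the genotypes within the class, no gene was called (0), but 28 were in the fit that takes littermate pairs as a block (27, 37 and 11 without pair 1, 2 and 3), 28 without the filter on low genes, 3 at 3 or more Gad2 UMIs, 1 without top Scrublet scores, and 0 to 7 with 1 library left out. The block changed no call on the shares, whose exact tests cannot fall below 0.1 unpaired or 0.25 paired. The E14.5 difference in share was -1.08 points after thinning. In each case the cause was not tested. Each embryonic library held few members, and 1 UMI in a class then weighed between 1.30 and 2.79 CPM, which limits low genes.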
